A study of Homo sapiens with 6 samples.

Results

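The genes described here are 10 members of the transforming growth factor beta (TGF-beta) superfamily and its binding proteins. They were taken by official symbol from a table of 19240 genes: GDF15, the activin subunit genes INHBA, INHBB and INHBE, the TGF-beta ligand genes TGFB1, TGFB2 and TGFB3, BMP4, and the activin-binding proteins FST and FSTL3. All 10 were found. RNA came from A549, a long-established line of human lung carcinoma cells, held for 48 h without glucose (3 libraries) or in 25 mM glucose (3 libraries), and transcripts were counted from their 3′ ends. A549 is 1 cell line with no other genetic change named in the labels, and nothing says that the replicates were cultured apart, so the p-values reflect only the spread among these libraries, perhaps a technical one. The title of the series names PCK2, a mitochondrial enzyme, and glucose-independent growth of tumor cells; the comparison asks which transcripts differ after glucose is withheld.

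Ligands of this superfamily are secreted dimers that bring together type I and type II receptor kinases, which then phosphorylate SMAD proteins. TGF-beta and activin ligands signal mainly through SMAD2 and SMAD3, and bone morphogenetic proteins (BMPs) mainly through SMAD1 and SMAD5. GDF15 is a distant member, secreted by many stressed cells, whose receptor GFRAL is known from the hindbrain. Follistatin (FST) and the related FSTL3 bind activins and keep them from their receptors.

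Libraries held 11086416 to 14060313 gene counts without glucose and 6701004 to 14259943 with glucose. Replicate 1 with glucose was the shallowest and stood apart on the second principal component (17.6% of the variance; score -38.6, against 23.9 and 19.9 for replicates 2 and 3 with glucose). All 9 epithelial and lung carcinoma markers were detected above the count filter. KRT8, KRT18 and AKR1B10 fell (log2 fold changes -1.18, -0.90 and -0.92) and CLDN4 rose (2.57). CLDN4 had 40, 46 and 84 counts without glucose, against 6, 5 and 13 counts with glucose. It passed the filter through the group without glucose, so its call is not read as a result. Of 7 alveolar type II markers 5 were not above it, with SFTPC and SFTPA1 at 0 in all libraries, while ABCA3 was tested and did not pass and LAMP3 had 82, 90 and 97 counts without glucose, against 0, 0 and 1 counts with glucose. Fibroblast markers, of cells that also make these ligands, summed to 2.22 to 4.27 CPM without glucose and 10.3 to 19.8 CPM with glucose, with COL1A2 and DCN at 0 in all libraries. Most of that sum was THY1, at 3.32, 1.91 and 2.21 CPM in replicates 1, 2 and 3 without glucose, against 8.06, 12.9 and 18.5 CPM with glucose, which fell (log2 fold change -2.43 ± 0.36, adjusted p = 6.84e-04 by edgeR). Endothelial markers summed to at most 0.848 CPM in any library. Leukocyte markers summed to 25.0 to 39.3 CPM without glucose and 16.2 to 18.2 CPM with glucose, with CD3E and MS4A1 at 0. Most of it was CD68, a lysosomal protein gene, which rose by 1.04 ± 0.22 on the log2 scale. CD14 was called lower, with 1, 0 and 2 counts without glucose, against 8, 11 and 17 counts with glucose. It passed the filter on low counts only through the group with glucose, so its call is not read as a result. Any part of these markers in the results was not tested.

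Of the 10 genes, BMP4 alone passed the test of the difference between groups, and it fell without glucose. GDF15 did not pass, and neither did INHBB, INHBE, TGFB1, TGFB2, FST or FSTL3. INHBA and TGFB3 had too few counts to be tested. Thus 8 of 10 genes passed the filter on low counts, of which 1 fell, 0 rose and 7 did not pass (quasi-likelihood F test of edgeR, two-sided, Benjamini-Hochberg adjusted p under 0.05). At an unadjusted p under 0.05, 3 were lower and 0 higher, and DESeq2 likewise called 3 lower and 0 higher. Among all 11886 tested genes 11.6% rose and 10.7% fell by edgeR at the adjusted threshold, so 1 of 8 is near the background. Shares of all tested genes at the unadjusted p or by DESeq2 are not given, here or below. Counts by those rules thus stand without a background and are not read as a result. Log2 fold changes were negative for 6 and positive for 2 of the 8, with a median of -0.37, against a median of 0.02 over all tested genes. CPM, the counts relative to the scaled library size, did not overlap between groups for 3 of the 8, all lower without glucose (BMP4, FST and INHBB). Over all tested genes the groups did not overlap for 40.4%, of which 19.4% were lower and 21.0% higher without glucose, as shares of all tested genes.

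**Figure D1:**
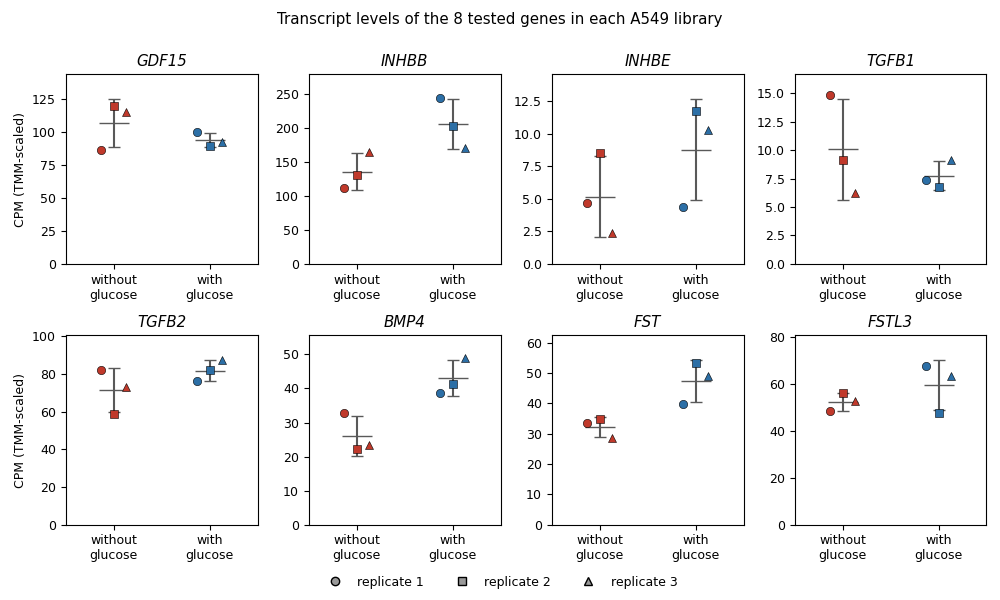
Level in CPM (y axis, from 0) of each of the 8 tested genes in the 3 libraries without glucose (red) and the 3 with glucose (blue); symbols mark replicate numbers, and bars the mean and SD of a group. BMP4, FST and INHBB are lower in all 3 libraries without glucose than in any with glucose, while the groups overlap for the other genes.

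**Figure D2:**
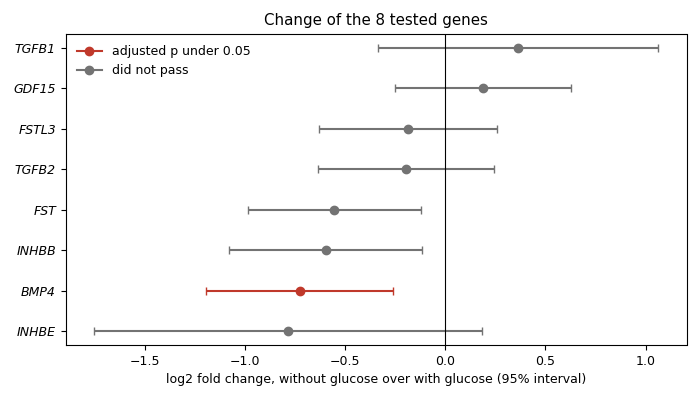
Fitted log2 fold change without glucose over with glucose (x axis) of the 8 tested genes with its 95% interval; red marks the gene that passed. BMP4 lies at -0.73, and the intervals of GDF15, TGFB1, TGFB2, INHBE and FSTL3 include 0.

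Sequences before the transcription start are shown for GDF15, as a gene known for induction by stress, and for BMP4, FST and INHBB, as the genes whose groups did not overlap. Each is 250 bases up to the start, 5′ to 3′ on the gene's strand, from RefSeq (GRCh38.p14), and capitals mark a motif match. They lie at chr19:18385908-18386157 (plus strand) for GDF15, chr14:53953396-53953645 (minus strand) for BMP4, chr5:53480379-53480628 (plus strand) for FST and chr2:120345886-120346135 (plus strand) for INHBB. The RefSeq table has 3 start sites for BMP4, of which the one with a match is printed.
GDF15: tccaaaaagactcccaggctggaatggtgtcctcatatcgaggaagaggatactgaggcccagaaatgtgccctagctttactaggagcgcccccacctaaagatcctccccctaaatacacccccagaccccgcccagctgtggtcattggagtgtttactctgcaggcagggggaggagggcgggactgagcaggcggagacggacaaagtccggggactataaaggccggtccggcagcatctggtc
BMP4: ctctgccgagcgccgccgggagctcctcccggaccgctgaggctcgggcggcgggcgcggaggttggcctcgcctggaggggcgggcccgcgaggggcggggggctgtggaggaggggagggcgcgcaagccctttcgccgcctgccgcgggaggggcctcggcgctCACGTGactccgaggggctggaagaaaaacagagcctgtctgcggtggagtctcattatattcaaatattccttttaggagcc
FST: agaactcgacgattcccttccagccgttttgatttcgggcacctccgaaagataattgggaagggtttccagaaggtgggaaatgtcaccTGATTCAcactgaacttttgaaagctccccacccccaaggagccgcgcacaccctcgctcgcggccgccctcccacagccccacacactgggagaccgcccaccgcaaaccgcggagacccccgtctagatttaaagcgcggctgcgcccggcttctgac
INHBB: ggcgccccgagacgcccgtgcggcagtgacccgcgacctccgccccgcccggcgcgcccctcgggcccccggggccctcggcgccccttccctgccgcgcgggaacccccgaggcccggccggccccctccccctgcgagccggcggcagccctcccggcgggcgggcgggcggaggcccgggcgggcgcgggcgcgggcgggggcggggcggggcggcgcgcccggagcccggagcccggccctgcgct

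The search covered both strands for 5 motifs: TGATGNAA, the composite element bound by ATF4 with C/EBP factors, TGACGTCA, the cyclic AMP response element, TGANTCA of AP-1 factors, the E-box CACGTG, and the endoplasmic reticulum stress element ERSE. BMP4 held CACGTG at positions -83 to -78 from the start, and 6.34% of 35116 promoters of the same length hold this motif. That share is for a single start site, while BMP4 was searched at 3, and its other start sites held no match. FST held TGANTCA at positions -160 to -154, a motif present in 6.57% of promoters. The printed windows of GDF15 and INHBB held no match to any of the 5 motifs, which says only that these letters are not in these windows. The shares for the other motifs were 3.14% (TGATGNAA), 1.65% (TGACGTCA) and 0.0740% (ERSE). Of the 9 genes in the promoter table, 4 had a match, TGFB2 and TGFB3 also with CACGTG, and no match overlapped another. These 9 genes were searched in 12 windows, and the other window of TGFB3 held no match. The share of promoters with a match to any of the 5 motifs is not given. The count of 4 thus stands without a background and is not read as a result. INHBE is not among the 9.

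GDF15 (Entrez 9518, chromosome 19), which encodes the stress-induced cytokine, was not detectably changed. It had 86.0, 119 and 115 CPM in replicates 1, 2 and 3 without glucose, against 99.8, 89.2 and 92.1 CPM with glucose. Replicates 2 and 3 without glucose were above all libraries with glucose and replicate 1 was below them, so the groups overlapped. Means were 107 ± 18.1 CPM without glucose and 93.7 ± 5.44 CPM with glucose (SD, n = 3 each). The log2 fold change was 0.19 ± 0.20 (SE; adjusted p = 0.534 by edgeR), which is a fold of 1.14 with a 95% interval of 0.841 to 1.54. That interval includes no change, and these libraries do not tell apart the folds within it.

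Across the 6 libraries, the log2 CPM of GDF15 was most like that of CRLS1 (Pearson r = 0.994), a cardiolipin synthase gene, ITM2B (r = 0.989), CLK2 (r = 0.981), SMIM29 (r = 0.980) and ATF1 (r = 0.980). These 5 had the highest r among all tested genes. With 6 libraries that share group, depth and scaling, these values describe the libraries only. None of the 5 passed the test between groups, with log2 fold changes of 0.13 to 0.39. They were picked for likeness to GDF15, which did not pass either, so this is no separate result about them.

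Transcription factors known as inducers of GDF15 or INHBE, or as partners of such factors, were called higher or not called. In that list of 10, 6 rose, none (0) fell and 4 did not pass, against 11.6% that rose and 10.7% that fell over all tested genes. The median log2 fold change was 0.95 against 0.02 over all tested genes. The genes of this list were chosen with earlier results of these data known. How far that choice shaped the share and the median was not tested. By DESeq2 or at an unadjusted p under 0.05, 0 of the list fell, a count without a background share that is not read as a result. DDIT3, which encodes the stress factor CHOP, had 37.8, 57.0 and 50.2 CPM in replicates 1, 2 and 3 without glucose, against 14.4, 13.9 and 16.1 CPM with glucose. Its groups were far apart, with a log2 fold change of 1.70 ± 0.22 (adjusted p = 2.75e-04 by edgeR). CEBPG, a partner of ATF4, rose by 1.91 ± 0.22 on the log2 scale, NUPR1, a stress-induced nuclear protein gene, by 1.53 ± 0.21, and EGR1, an immediate-early factor, by 1.99 ± 0.39. XBP1 of the unfolded protein response and CEBPB rose by 0.98 and 0.92. ATF4 and ATF3 were among those that did not pass, with log2 fold changes of 0.00 and -0.12. Whether the change of GDF15 differs from that of any of these genes was not tested.

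Neither tested activin subunit gene passed by edgeR. INHBA (Entrez 3624, chromosome 7), which encodes the subunit of activin A, was at 0 counts in all 6 libraries. A floor of 3 counts per library allows a level of up to 0.211 to 0.424 CPM, for reads that the table assigns to the gene; whether reads of INHBA were lost in the alignment or counting was not tested. No ratio of INHBA to FST or FSTL3 could thus be formed.

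INHBB (Entrez 3625, chromosome 2), the subunit gene of activin B, had 112, 130.0 and 165 CPM in replicates 1, 2 and 3 without glucose, against 243, 203 and 169.8 CPM with glucose. All libraries without glucose were below all libraries with glucose, but replicate 3 without glucose (165 CPM) was close to replicate 3 with glucose (169.8 CPM). The log2 fold change was -0.60 ± 0.22, a fold of 0.661 (95% interval 0.474 to 0.921). It did not pass by edgeR (adjusted p = 0.0699), while it passed by DESeq2 (adjusted p = 0.0351).

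INHBE (Entrez 83729, chromosome 12), the activin E subunit gene, known as a liver-secreted product and a target of stress signaling, had 49, 111 and 32 counts in replicates 1, 2 and 3 without glucose, against 31, 122 and 146 counts with glucose. In CPM these were 4.65, 8.50 and 2.36 without glucose, against 4.38, 11.7 and 10.3 with glucose. The groups overlapped, since replicate 1 with glucose was lower than 2 of the libraries without glucose. Its spread was the widest of the 8 tested genes, with a coefficient of variation of 60.0% without glucose and 44.2% with glucose. The log2 fold change was -0.78 ± 0.45 (adjusted p = 0.228 by edgeR), and its 95% interval of -1.75 to 0.19 includes 0.

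Follistatin and FSTL3 bind activins, and FST also binds BMPs. FST (Entrez 10468, chromosome 5) had 33.5, 34.9 and 28.7 CPM in replicates 1, 2 and 3 without glucose, against 39.9, 53.4 and 48.9 CPM with glucose. The groups did not overlap. Its log2 fold change of -0.55 ± 0.20, a fold of 0.682 (95% interval 0.505 to 0.921), did not pass by edgeR (adjusted p = 0.0645). The call was made without replicate 1 with glucose (adjusted p = 0.0357) and by DESeq2 (adjusted p = 0.0449).

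FSTL3 (Entrez 10272, chromosome 19) had 48.6, 56.1 and 52.9 CPM in replicates 1, 2 and 3 without glucose, against 68.0, 47.8 and 63.5 CPM with glucose. Replicate 2 with glucose was the lowest of the 6 libraries, so the groups overlapped. The log2 fold change was -0.19 ± 0.20 (adjusted p = 0.545 by edgeR). Within a library, which removes library scaling, INHBB had 3.34, 3.72 and 5.74 counts per FST count in replicates 1, 2 and 3 without glucose, against 6.09, 3.79 and 3.47 with glucose. These ratios overlapped (difference of mean log2 ratios -0.06, exact two-sided permutation p = 0.7, where 0.1 is the smallest p possible).

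The TGF-beta ligand genes did not change detectably. TGFB1 (Entrez 7040, chromosome 19), the most widely made of these ligands, had 14.9, 9.11 and 6.19 CPM in replicates 1, 2 and 3 without glucose, against 7.35, 6.72 and 9.15 CPM with glucose. The libraries without glucose held both the highest and the lowest value. Its log2 fold change was 0.36 ± 0.32 (adjusted p = 0.442 by edgeR) and was -0.025 with glucose-free replicate 1 left out. In GENCODE, exons of TGFB1 overlap exons of HNRNPUL1 on the other strand, and the strand setting of the counting is not given in the sources used here, so the TGFB1 counts are uncertain to that extent.

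TGFB2 (Entrez 7042, chromosome 1) had 82.2, 58.8 and 73.2 CPM in replicates 1, 2 and 3 without glucose, against 76.0, 82.2 and 87.1 CPM with glucose. The groups overlapped, and the log2 fold change was -0.20 ± 0.20 (adjusted p = 0.514 by edgeR; 95% interval -0.63 to 0.24). TGFB3 (Entrez 7043, chromosome 14) had 2, 0 and 1 counts without glucose, against 0, 6 and 0 counts with glucose. Its 3 pooled counts without glucose and 6 with glucose give, after library scaling, a ratio of 0.426 (exact 95% interval 0.0690 to 1.996, for counting error only). TGFB2 gave 5.51, 6.43 and 11.8 counts per TGFB1 count in replicates 1, 2 and 3 without glucose, against 10.3, 12.1 and 9.49 with glucose (difference of mean log2 ratios -0.50, exact two-sided permutation p = 0.3).

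BMP4 (Entrez 652, chromosome 14), a BMP ligand gene that acts in lung development, fell without glucose. It had 32.7, 22.2 and 23.4 CPM in replicates 1, 2 and 3 without glucose, against 38.7, 41.4 and 49.0 CPM with glucose. All libraries without glucose lay below all libraries with glucose. Means were 26.1 ± 5.77 CPM without glucose and 43.0 ± 5.32 CPM with glucose (SD, n = 3 each), and the log2 fold change was -0.73 ± 0.22 (adjusted p = 0.0302 by edgeR), a level 39.5% lower. The call was lost on leaving out glucose-free replicate 2 (adjusted p = 0.0910) or 3 (0.109), or replicate 2 (0.0688) or 3 (0.113) with glucose, while the log2 fold change stayed between -0.92 and -0.62.

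The BMP target genes that were called both fell. Of 10 listed BMP target genes 6 were tested, of which 2 fell, 0 rose and 4 did not pass (median log2 fold change -0.12). Over all tested genes 10.7% fell and 11.6% rose. At an unadjusted p under 0.05 and by DESeq2, 0 BMP targets rose, again a count without a background share. ID3, an inhibitor of basic helix-loop-helix factors and a direct BMP target, had 163, 205 and 208 CPM in replicates 1, 2 and 3 without glucose, against 541, 408 and 358 CPM with glucose. Its groups were far apart, with a log2 fold change of -1.18 ± 0.22 (adjusted p = 0.00268 by edgeR). The related ID1 fell by 0.78 ± 0.24 on the log2 scale (adjusted p = 0.0352), a call lost without glucose-free replicate 1 (0.114) or 3 (0.118), or replicate 1 (0.0962) or 2 (0.0888) with glucose; 1 gene of the list then fell. ID2 and MSX1, a homeobox gene, had log2 fold changes of -0.29 and 0.60 and did not pass, though MSX1 did without replicate 1 with glucose (adjusted p = 0.0471). The remaining tested genes of the list, MSX2 and GATA2, had log2 fold changes of 0.30 and 0.05 and did not pass.

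Among 15 other extracellular antagonists 5 were tested, of which 1 rose and 4 did not pass (median log2 fold change 0.38). The share of all tested genes that rose was 11.6%. GREM1, which binds BMP2 and BMP4 and keeps them from their receptors, had 184, 116 and 126 CPM in replicates 1, 2 and 3 without glucose, against 50.0, 77.2 and 108 CPM with glucose. The groups did not overlap, but replicate 2 without glucose lay near replicate 3 with glucose. GREM1 rose by 0.85 ± 0.28 on the log2 scale (adjusted p = 0.0474 by edgeR), and did not pass when any library but replicate 3 with glucose was left out (adjusted p 0.0525 to 0.172) or with DESeq2 size factors as scaling (0.0528). NOG, another BMP antagonist gene, BMPER and FSTL1 had log2 fold changes of 0.38, 0.59 and 0.15 and did not pass. In a ratio chosen after its values were seen and so not tested, BMP4 had 0.178, 0.192 and 0.185 counts per GREM1 count in replicates 1, 2 and 3 without glucose, against 0.774, 0.536 and 0.454 with glucose.

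**Figure D3:**
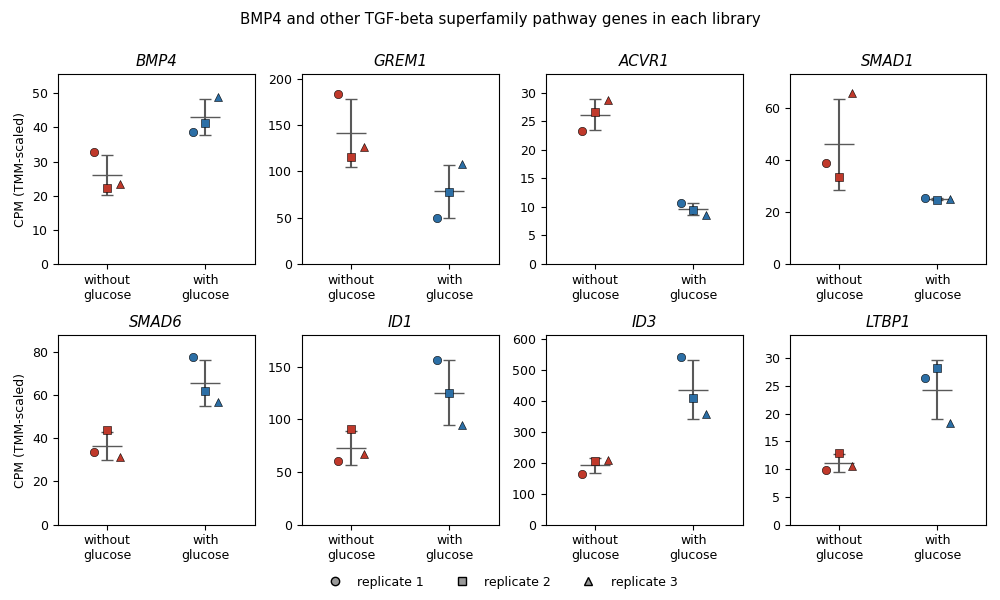
Level in CPM (y axis, from 0) of BMP4 and 7 other pathway genes in the 3 libraries without glucose (red) and the 3 with glucose (blue), with the mean and SD of each group. BMP4, SMAD6, ID1, ID3 and LTBP1 are lower, and GREM1, ACVR1 and SMAD1 higher, in all 3 libraries without glucose than in any with glucose. The genes shown were picked from those that were called, so their separation follows from that choice. Over all tested genes the groups did not overlap for 40.4%. Among genes not shown, the groups of ID2, MSX2, GATA2 and NOG overlapped, and MSX1 was higher in all 3 libraries without glucose.

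Receptor genes were mostly not called. Of 12 type I and type II receptor genes 10 were tested, of which 1 rose, 0 fell and 9 did not pass (median log2 fold change 0.35). Of all tested genes 11.6% rose and 10.7% fell. By DESeq2 or at an unadjusted p under 0.05, 0 receptor genes fell, again a count without a background share. ACVR1, a type I receptor that serves BMPs and can bind activins, had 23.2, 26.6 and 28.7 CPM in replicates 1, 2 and 3 without glucose, against 10.6, 9.51 and 8.51 CPM with glucose. Its groups were far apart, and the log2 fold change of 1.46 ± 0.21 (adjusted p = 6.84e-04 by edgeR) stayed between 1.38 and 1.54 when any 1 library was left out. BMPR2, the BMP type II receptor gene, TGFBR1 and AMHR2 had log2 fold changes of 0.50, 0.44 and 1.27 and did not pass. Of 10 co-receptor genes 4 were tested and 0 passed by edgeR. The counts at an unadjusted p under 0.05 and by DESeq2 were 0 and 0, without a background share. BAMBI, a decoy receptor gene, had a log2 fold change of -0.39, RET, the signaling partner of GFRAL, -0.70, TGFBR3 -0.37 and RGMB 0.29. GFRAL was at 0 counts in all 6 libraries.

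SMAD genes and their modulators were called in 4 of 15 tested cases, a share near the 22.3% of all tested genes that were called; 3 rose and 1 fell (median log2 fold change 0.15). SMAD6, an inhibitory SMAD of the BMP branch and itself a BMP target, had 33.8, 43.8 and 31.4 CPM in replicates 1, 2 and 3 without glucose, against 77.4, 61.9 and 56.9 CPM with glucose. It fell by 0.85 ± 0.22 on the log2 scale (adjusted p = 0.0146 by edgeR), but not without glucose-free replicate 1 (0.0502) or 3 (0.0696). SMAD1, a BMP-activated SMAD, rose by 0.88 ± 0.25, SMURF2, a ubiquitin ligase for SMADs and receptors, by 0.72 ± 0.20, and ZFYVE9, which anchors SMADs at endosomes, by 1.28 ± 0.38. SMAD1 had 38.8, 33.4 and 66.0 CPM in replicates 1, 2 and 3 without glucose, against 25.4, 24.6 and 25.1 CPM with glucose. Without glucose-free replicate 3 its log2 fold change was 0.52 (adjusted p = 0.135), and its call was also lost without replicate 2 (0.0849) or 3 (0.0775) with glucose. The groups of ZFYVE9 overlapped, and it was not called without glucose-free replicate 1 (0.136) or 2 (0.0644) or replicate 1 (0.0827) or 3 (0.0850) with glucose. SMURF2 was not called without glucose-free replicate 2 (0.0694) or 3 (0.0614) or replicate 3 with glucose (0.0849). The number that rose was 1 without glucose-free replicate 2 or 3, and 0 without replicate 3 with glucose.

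Genes that store, cleave or activate the ligands outside the cell were also called in 4 of 15 tested cases, near the 22.3% of all tested genes; 3 rose and 1 fell (median log2 fold change 0.09). LTBP1, which tethers latent TGF-beta to the matrix, had 9.86, 12.9 and 10.5 CPM in replicates 1, 2 and 3 without glucose, against 26.4, 28.2 and 18.2 CPM with glucose. It fell by 1.12 ± 0.24 on the log2 scale (adjusted p = 0.00573 by edgeR) and passed with any 1 library left out. LTBP4, of the same family, rose by 0.91 ± 0.29, BMP1, a protease that frees BMPs from chordin, by 0.91 ± 0.23, and ITGAV, a subunit of the integrins that activate latent TGF-beta, by 0.71 ± 0.24. The ITGAV call was lost whichever library was left out (adjusted p 0.0504 to 0.140) and with either other scaling (0.0546 and 0.0538), and the LTBP4 call with library totals as scaling (0.0519). The groups of LTBP4 overlapped (glucose-free replicate 1 at 10.1 CPM, against 10.5 CPM in replicate 1 with glucose), and its call was also lost without glucose-free replicate 2 (0.109) or 3 (0.167) or replicate 2 (0.0988) or 3 (0.150) with glucose. BMP1 was not called without glucose-free replicate 3 (0.0762) or replicate 2 with glucose (0.0544). The number that rose was 1 without glucose-free replicate 2 or replicate 3 with glucose, and 0 without glucose-free replicate 3 or replicate 2 with glucose.

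TGF-beta and activin target genes were called in both directions. Of the 22 that were tested, 8 rose and 4 fell, 10 did not pass, and the median log2 fold change was 0.44. The 8 include MMP2, with 14, 30 and 25 counts without glucose, against 0, 0 and 9 counts with glucose. MMP2 passed the filter on low counts only through the group without glucose, so its call is not read as a result. Among all tested genes 11.6% rose and 10.7% fell, both smaller shares than in this list. The list was chosen with earlier results of these data known. TAGLN, an actin-binding protein gene, had 78.1, 93.3 and 63.4 CPM in replicates 1, 2 and 3 without glucose, against 23.5, 25.1 and 25.5 CPM with glucose. Its groups were far apart, and it rose by 1.66 ± 0.21 on the log2 scale (adjusted p = 2.74e-04 by edgeR). ANGPTL4, a lipoprotein lipase inhibitor gene, rose by 1.77 ± 0.29, while COL1A1, a chain of type I collagen, fell by 1.37 ± 0.25. CCN2, a matricellular protein gene, fell by 1.16 ± 0.23. SMAD7, the feedback inhibitor of TGF-beta signaling, is in the list of SMADs and not in this list. It did not pass, at a log2 fold change of 0.36. The number that rose was 5 without glucose-free replicate 3 and 4 without replicate 2 with glucose, and 2 fell without glucose-free replicate 2 or either of replicates 1 and 2 with glucose.

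Other ligand genes of the superfamily mostly had too few counts to be tested. Of 25 listed, 12 had no count in any library and 4 were tested, of which 1 fell. The share of all tested genes that fell was 10.7%. Exons of GDF1, one of the 12, overlap exons of CERS1 on the same strand in GENCODE, so its 0 is uncertain. GDF11, a close relative of myostatin, had 9.10, 4.97 and 3.54 CPM in replicates 1, 2 and 3 without glucose, against 11.2, 22.4 and 25.3 CPM with glucose. It fell by 1.76 ± 0.37 on the log2 scale (adjusted p = 0.00570 by edgeR), although replicate 1 without glucose lay near replicate 1 with glucose. AMH, the anti-Müllerian hormone gene, did not pass (log2 fold change 1.02 ± 0.37, adjusted p = 0.0671), except without replicate 3 with glucose (0.0323). BMP8B and BMP6 had log2 fold changes of 0.28 and 0.13 and did not pass.

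**Figure D4:**
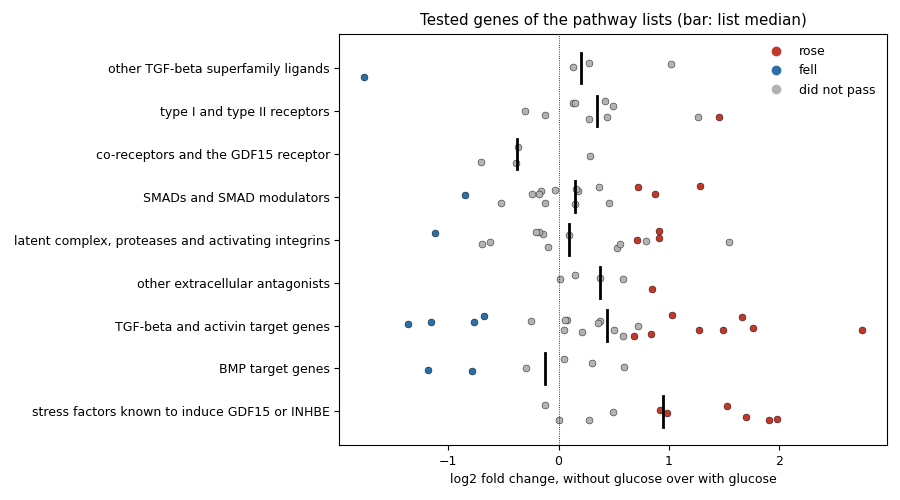
Fitted log2 fold change without glucose over with glucose (x axis) of every tested gene in the 9 pathway lists (rows; height within a row has no meaning), with the list median as a bar; red rose, blue fell, grey did not pass. The list of stress factors has its median at 0.95, and the other medians lie between -0.38 and 0.44. All 9 lists were chosen with earlier results of these data known.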

How the data were processed

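RNA was profiled by 3′-end digital gene expression: oligo-dT priming with barcodes, pooling by the quantitative PCR signal of Actb, and 12 PCR cycles, per the labels' protocols. The authors deposited raw read counts for each Entrez gene; STAR, HTSeq and build hg19 are named in the submitters' processing notes, while annotation and strand setting are not given in the sources. The 5 HTSeq summary lines, 55.3% to 56.9% of the reads in a library, were left out. No molecular identifiers are mentioned, so intervals and floors cover counting error only. Symbols came from RefSeq (GRCh38.p14, names only) for 19178 of 19240 genes. GENCODE 29 served only to find genes with overlapping exons.

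Groups were taken from the labels and compared with edgeR 4.0.16 in R 4.3.3 (TMM, filterByExpr with a minimum count of 10, quasi-likelihood F test, Benjamini-Hochberg adjustment over 11886 genes). The SE of a log2 fold change was worked back from its F statistic, and intervals are at 95% from the t distribution. CPM uses the TMM-scaled library size. Permutation tests used SciPy 1.17.1, with 0.5 added to each count. The code was tested on simulated data. Alternatives were other scalings and filters, DESeq2 1.42.0, a replicate block and leaving out each library. Replicate numbers are not stated to pair libraries, and same-numbered libraries did not deviate together (correlations -0.27, -0.12 and 0.04), so the main test has no block. Libraries of a group differed by more than sampling noise (chi-square over degrees of freedom 22.1 to 57.3).

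Members, the 14 gene lists and tests were chosen with earlier results of these data known, and all 187 list entries were matched. Named genes are the 10 members, in each pathway list the 4 tested genes with the smallest p and every gene that passed where 6 or fewer did, and the 5 genes most like GDF15 (Pearson r of log2(CPM + 0.5)); the others were chosen after their values were seen. Some genes that this rule names are not reported here. A comparison of protein sequences was not made.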

Additional observations from a re-analysis of the deposited data

How the results depend on the processing

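Under the other scalings and filters, DESeq2 and the replicate block, all 8 tested members kept their direction. The block, whose numbers are only shared labels, gave 984 higher and 911 lower genes against 1376 and 1276 without it, and not every library correlated best with its own number; BMP4 then had a log2 fold change of -0.74 (adjusted p = 0.0617), 1 BMP target fell, and 1 gene of the latent complex list and 0 antagonists rose. With DESeq2, INHBB (-0.62) and FST (-0.57) passed. With DESeq2 size factors no antagonist rose (0), and with library totals 1 gene of the latent complex list did. The median of that list was 0.32 when genes averaging under 20 counts were dropped, and that of the co-receptors -0.54 with no filter. In a paired exact test the INHBB to FST ratio had p = 0.750 and the TGFB2 to TGFB1 ratio p = 0.5, where 0.25 is the smallest possible.

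With 1 library left out, 860 to 1292 genes were higher and 781 to 1232 lower. Log2 fold changes ran from -0.92 to -0.62 for BMP4, -0.66 to -0.46 for FST, -0.76 to -0.46 for INHBB, -1.38 to -0.44 for INHBE, 0.09 to 0.32 for GDF15, -0.31 to -0.09 for TGFB2 and -0.33 to -0.09 for FSTL3. TGFB1 ran from -0.025 (without glucose-free replicate 1) to 0.61, and BMP6 from -0.24 (without the same library) to 0.38. The log2 ratio difference of INHBB to FST ran from -0.29 to 0.19; it was 0.10 and 0.022 without glucose-free replicates 1 and 2, and 0.19 without replicate 1 with glucose. The numbers that rose were 0 to 1 for other ligands, antagonists and BMP targets, 0 to 2 for SMADs and for the latent complex list, and 4 to 9 for TGF-beta targets; those that fell were 0 to 1 for SMADs, 2 to 3 for TGF-beta targets and 1 to 2 for BMP targets. List medians ran from 0.14 to 0.42 for receptors, -0.49 to -0.14 for co-receptors, 0.035 to 0.14 for SMADs, 0.019 to 0.33 for the latent complex list, 0.15 to 0.49 for antagonists and 0.40 to 0.63 for TGF-beta targets. The cause of these moves was not tested. At these depths INHBA and TGFB3 could not be tested.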

Other observations

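Outside the test, where the filter on low counts removed them, a pair of TGF-beta-related genes chosen after their values were seen had few counts in cells with glucose. SNAI2, a zinc-finger repressor of epithelial genes, had 27, 10 and 50 counts in replicates 1, 2 and 3 without glucose, against 0, 0 and 2 counts with glucose. After library scaling the ratio of pooled counts was 37.1 (exact 95% interval 9.96 to 311, for counting error only). LRRC32, which holds latent TGF-beta at the cell surface, had 1, 10 and 2 counts without glucose, against 0 in each library with glucose. It was 3.69-fold higher without glucose if the pooled count of the whole group with glucose is set to 3. That floor is lower than the 3 counts per library used for INHBA, which would give a smaller fold. The exact 95% lower limit of its ratio of pooled counts was 2.60, for counting error only. Replicate 2 without glucose gave 10 of its 13 counts.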
